A study of Mus musculus with 14 samples.

Results

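The genes described here are 10 genes of the unfolded protein response of the endoplasmic reticulum (ER), taken by gene symbol: Hspa5, Hsp90b1, Calr, Xbp1, Atf6, Ern1, Dnajb9, Herpud1, Sdf2l1 and Ddit3. All 10 were measured, among 17097 genes in all. Each gene is given by the probe set that names only it and has the highest mean over the arrays. The values are log2 expression values, so a difference of 1 is a doubling, and levels of different genes are not comparable on this scale.

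Hypothalamic RNA of mice aged 12 weeks was measured on 14 Affymetrix arrays, and the hypothalamus is the brain region that senses energy state. There were 3 arrays of knockout fasted mice and 3 of control fasted mice, kept without food for 16 h, and 4 of knockout fed mice and 4 of control fed mice, which ate freely. In the knockout, Mfn1, which encodes a protein of mitochondrial fusion, was deleted in POMC neurons, and the labels do not name the Cre line or the alleles that control mice carry. Every group had a mixed background of the strains C57Bl/6J, FVB/N and 129. POMC neurons are a small population, so most hypothalamic RNA should come from cells that keep Mfn1. Neither the share of POMC neurons nor that of cells with the deletion was measured here. Mfn1 itself averaged 9.06 ± 0.04 (SD, n = 3) in knockout fasted and 9.06 ± 0.01 (n = 3) in control fasted mice, and 9.06 ± 0.04 (n = 4) in knockout fed and 9.04 ± 0.06 (n = 4) in control fed mice. These values are from the probe set with the highest mean, of 3 that name only Mfn1, and the others are not given here. On this probe set the Mfn1 level in whole hypothalamus did not separate the genotypes. The sources used here do not say whether its probes lie in the deleted exons.

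Nothing in the labels ties an array to a single mouse, and a p-value here reflects variation among arrays that may be technical. The sample titles carry numbers in a lower and a higher series. All 6 fasted arrays and replicate 1 of the knockout fed group are in the lower series, and the other 7 fed arrays are in the higher one. Fasting and this number series can thus hardly be told apart, and what the numbers stand for is not stated. Among markers of the tissue, Pmch lay between 12.06 and 12.63 and Hcrt between 9.71 and 11.27, while the median of the background probe sets was 3.64. Nkx2-1 lay between 3.95 and 4.36, close to that background. The mean of the hypothalamic markers, each centred on its mean over the arrays, was lowest in control fed replicate 1, at -0.651. The next lowest array, control fed replicate 4, had -0.19. Cortex and hippocampus markers, centred alike, were highest in control fed replicate 1 (0.479) and knockout fed replicate 4 (0.396). All other arrays had 0.019 or less. The tissue was thus not uniform across arrays, and the cause was not tested.

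Secreted and membrane proteins fold in the ER with the help of chaperones such as BiP, the product of Hspa5. When unfolded proteins build up, 3 sensors in the ER membrane respond: IRE1, PERK and ATF6. IRE1, the product of Ern1, splices the Xbp1 mRNA into the form that encodes an active transcription factor. ATF6 is cut in the Golgi and releases a factor that raises chaperone genes, and PERK slows translation while favouring ATF4, which raises Ddit3, the gene of the stress factor CHOP. Neurons of the hypothalamus that make neuropeptides from large precursors, POMC among them, rely on this folding machinery.

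The promoters of 4 members are shown. Hspa5, Hsp90b1 and Calr hold the ER stress response element (ERSE), the sequence through which cleaved ATF6 acts together with NF-Y. Herpud1 holds a related element, ERSE-II, instead. The element ERSE was searched on both strands as CCAAT and CCACG separated by any 9 bases, and the related ERSE-II as ATTGG and CCACG separated by any 1 base. The sequences are the 250 bases before the gene start in the RefSeq table of GRCm38.p6, written 5′ to 3′ on the gene's strand, and capitals mark the match, which reads in reverse complement where it begins with CGTGG. They lie at chr2:34771840-34772089 on the plus strand, chr10:86705445-86705694 on the minus strand, chr8:84846932-84847181 on the minus strand and chr8:94386179-94386428 on the plus strand.
Hspa5: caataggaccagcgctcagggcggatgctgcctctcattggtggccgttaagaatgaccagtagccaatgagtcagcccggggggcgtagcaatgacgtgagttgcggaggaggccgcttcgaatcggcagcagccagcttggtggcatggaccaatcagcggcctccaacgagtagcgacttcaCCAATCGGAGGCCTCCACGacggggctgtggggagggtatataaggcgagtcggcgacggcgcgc
Hsp90b1: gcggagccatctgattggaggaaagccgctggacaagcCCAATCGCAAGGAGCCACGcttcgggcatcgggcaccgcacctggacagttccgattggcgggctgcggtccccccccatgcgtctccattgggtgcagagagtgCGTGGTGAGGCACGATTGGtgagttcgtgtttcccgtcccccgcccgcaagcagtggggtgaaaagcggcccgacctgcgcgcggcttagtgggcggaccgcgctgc
Calr: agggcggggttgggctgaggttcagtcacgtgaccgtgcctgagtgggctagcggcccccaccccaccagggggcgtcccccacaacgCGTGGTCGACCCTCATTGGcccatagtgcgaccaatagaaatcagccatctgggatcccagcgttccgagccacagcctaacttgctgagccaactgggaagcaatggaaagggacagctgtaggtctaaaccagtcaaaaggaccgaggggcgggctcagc
Herpud1: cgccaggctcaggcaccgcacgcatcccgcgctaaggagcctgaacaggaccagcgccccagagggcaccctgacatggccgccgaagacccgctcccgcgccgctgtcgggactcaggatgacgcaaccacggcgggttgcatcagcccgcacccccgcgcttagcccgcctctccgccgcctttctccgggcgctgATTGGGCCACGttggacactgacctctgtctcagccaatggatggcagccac

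Hspa5 and Calr had 1 exact match to ERSE each and Hsp90b1 had 2, whereas Herpud1 had 1 to ERSE-II. Elements with a differing letter were not counted. Among 32851 promoter windows of 300 bases, 0.119% held ERSE and 0.037% held ERSE-II. Of the members, 9 matched a window in the table, and Atf6 was named only. The other 5 of these 9 held no exact match to either element. No member held the letters TGACGTGG (UPRE) or TGATGNAAT (CARE), which stood in 0.676% and 0.965% of windows. These matches describe the letters in the windows and do not show binding.

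The first comparison asks how these genes differ between fasted and fed hypothalamus. Averaged over genotypes, Herpud1 was higher in fasted mice on both of its probe sets and Calr was lower on 1 of its 2, and the other 8 members did not pass on the probe sets chosen. The test was limma with Benjamini-Hochberg adjustment over all genes at an adjusted p of 0.05. Thus 1 member of 10 was called lower, against 4.9% of all genes, and 1 was called higher, against 5.14%. At an unadjusted p under 0.05 there were 5 members, against 26% of all genes. The median difference of the members was -0.08, and that of all genes was 0.0025. In bulk tissue, fewer cells of a type and less RNA per cell cannot be told apart.

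Calr encodes calreticulin, a lectin chaperone of the ER lumen that also stores calcium. Its values were 10.89, 10.79 and 10.97 in knockout fasted mice and 10.80, 10.88 and 10.88 in control fasted mice, against 11.00, 11.15, 11.22 and 11.11 in knockout fed mice and 11.05, 11.19, 11.08 and 11.04 in control fed mice. On this probe set all 6 fasted arrays lay below all 8 fed arrays. The averaged difference was -0.24 ± 0.05 (SE), so the fasted level was 84.9% of the fed one, with an adjusted p of 0.0067. The difference was -0.24 ± 0.06 in each genotype, and neither passed on its own, with adjusted p-values of 0.104 in knockout and 0.0692 in control mice. On the second probe set of Calr the fasted arrays, 10.07 to 10.34, and the fed arrays, 10.21 to 10.51, overlapped. There the averaged difference of -0.18 ± 0.06 did not pass (adjusted p = 0.0622 over the 28898 probe sets), so the call for Calr depends on the probe set.

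Hspa5 encodes BiP, the main Hsp70 chaperone of the ER. It had 10.73, 10.61 and 10.73 in knockout fasted mice and 10.59, 10.73 and 10.71 in control fasted mice, against 10.75, 10.83, 10.89 and 10.80 in knockout fed mice and 10.74, 11.06, 10.86 and 10.76 in control fed mice. Again no fasted array reached a fed one, although the highest fasted array, 10.73, and the lowest fed array, 10.74, nearly met. On the probe sets chosen, members whose fasted and fed arrays did not overlap were Calr and Hspa5, 2 of 10 lower, against 1.49% of all genes, and 0 of 10 higher, against 1.92%. For Hspa5 the averaged difference of -0.15 ± 0.05 did not pass (adjusted p = 0.0884). On its second probe set the fasted arrays, 10.29 to 10.46, and the fed arrays, 10.33 to 10.76, overlapped, with a difference of -0.12 ± 0.07 (adjusted p = 0.288 over probe sets).

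Sdf2l1 encodes an ER lumen protein that works with BiP and its co-chaperones. Its values were 7.27, 6.93 and 7.44 in knockout fasted mice and 6.85, 7.24 and 7.07 in control fasted mice, against 7.06, 7.77, 7.69 and 7.60 in knockout fed mice and 7.30, 8.20, 7.69 and 7.51 in control fed mice. It had the widest spread of the lumen proteins, with knockout fed replicate 1 among the fasted arrays and control fed replicate 2 highest of all. The averaged difference was -0.47 ± 0.15, with an adjusted p of 0.0615.

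Hsp90b1 encodes GRP94, the Hsp90 chaperone of the ER. It had 11.24, 11.14 and 11.24 in knockout fasted mice and 11.21, 11.24 and 11.19 in control fasted mice, against 11.25, 11.29, 11.25 and 11.19 in knockout fed mice and 11.28, 11.45, 11.29 and 11.27 in control fed mice. On this probe set the groups overlapped through 1 knockout fed array, and the averaged difference of -0.07 ± 0.04 did not pass (adjusted p = 0.256). A second probe set of the gene differed by -0.22 ± 0.05 and passed over the 28898 probe sets (adjusted p = 0.0138). There all fasted arrays, 10.8 to 10.96, lay below all fed arrays, 11.01 to 11.21. Both the separation and the call for Hsp90b1 thus depend on the probe set.

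Herpud1 encodes an ER membrane protein that takes part in ER-associated degradation, the removal of misfolded proteins to the proteasome. Its values were 9.92, 10.23 and 9.97 in knockout fasted mice and 10.06, 10.22 and 10.27 in control fasted mice, against 9.75, 9.84, 9.80 and 9.77 in knockout fed mice and 9.68, 9.97, 9.78 and 9.73 in control fed mice. Within each genotype all fasted arrays lay above all fed arrays, but across genotypes the ranges overlapped, since control fed replicate 2 lay above knockout fasted replicate 1. The averaged difference was 0.32 ± 0.06, a fasted level 125% of the fed one (adjusted p = 0.00585). A second probe set gave 0.27 ± 0.06 (adjusted p = 0.0152 over probe sets).

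In control mice alone Herpud1 rose by 0.39 ± 0.09 (adjusted p = 0.0273) and was the 1 member called of 10. Of all genes 2.76% were called there, 1.64% higher and 1.12% lower. At an unadjusted p under 0.05 there were 5 of 10 members, against 17.5% of all genes. Groups of control mice did not overlap for 2 members that were higher, Herpud1 and Dnajb9, against 7.94% of all genes, and for 4 that were lower, Hspa5, Hsp90b1, Calr and Sdf2l1, against 8.57%. In knockout mice alone 0 of 10 members were called by limma, against 0.696% of all genes, 0.468% higher and 0.228% lower. There 3 members had an unadjusted p under 0.05, against 16.5% of all genes. In these mice groups did not overlap for 2 higher members, Herpud1 and Ddit3, against 7.37%, and 2 lower members, Hspa5 and Calr, against 5.64%. The call of Herpud1 in control mice was lost without control fasted replicate 2 or 3, or without control fed replicate 1, 3 or 4, where the adjusted p reached 0.119. It was also lost when the fit held only the groups compared (adjusted p = 0.0615).

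Ddit3 encodes CHOP, a transcription factor of prolonged ER stress. It had 8.77, 8.72 and 8.60 in knockout fasted mice, against 8.38, 8.50, 8.47 and 8.36 in knockout fed mice. In control mice it had 8.71, 8.55 and 8.55 when fasted, against 8.54, 8.72, 8.56 and 8.53 when fed. The knockout arrays separated by feeding and the control arrays did not. The fasting difference was 0.27 ± 0.07 in knockout mice (adjusted p = 0.0912) and 0.02 ± 0.07 in control mice (adjusted p = 0.938), and neither passed.

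Xbp1 encodes the transcription factor activated by IRE1. Its values were 10.52, 10.35 and 10.82 in knockout fasted mice and 10.53, 10.57 and 10.51 in control fasted mice, against 10.42, 10.79, 10.81 and 10.80 in knockout fed mice and 10.57, 10.99, 10.84 and 10.58 in control fed mice. The ranges overlapped in knockout mice and met at 10.57 in control mice, with knockout fasted replicate 3 high and knockout fed replicate 1 low. The averaged difference of -0.18 ± 0.09 did not pass (adjusted p = 0.251), whereas another probe set, at -0.28 ± 0.08, did (adjusted p = 0.0431 over probe sets). Xbp1 has 4 probe sets, and on each the fasted mean was below the fed mean in both genotypes. On the probe set at the next highest level, fasted and fed means were 10.19 and 10.53 in knockout and 10.11 and 10.42 in control mice. Total Xbp1 signal does not show how much of the mRNA was spliced, and the sources used here do not give the probes' positions.

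Atf6 and Ern1, the genes of 2 of the sensors, overlapped between fasted and fed mice. Atf6 lay between 7.80 and 8.09 in fasted mice, with a median of 7.965, against 7.82 to 8.09 in fed mice, with a median of 7.905. Ern1 lay between 6.39 and 7.43 in fasted mice, with a median of 7.23, against 7.01 to 7.43 in fed mice, with a median of 7.175. The averaged differences were 0.02 ± 0.06 for Atf6 (adjusted p = 0.853) and -0.09 ± 0.14 for Ern1 (adjusted p = 0.742). A second, lower probe set of Atf6 had lower fasted means, with overlapping arrays. They were 5.61 in knockout and 5.64 in control fasted mice, against 5.89 and 5.785 in fed mice. Ern1 has 5 probe sets, and the others averaged 4.42 or less, near the background median of 3.64. On the chosen probe set the lowest Ern1 value was that of control fasted replicate 3.

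Dnajb9 encodes ERdj4, a co-chaperone of BiP. It lay between 10.25 and 10.44 in fasted mice, with a median of 10.365, against 10.19 to 10.36 in fed mice, with a median of 10.29. The averaged difference of 0.07 ± 0.04 did not pass (adjusted p = 0.245).

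**Figure D1:**
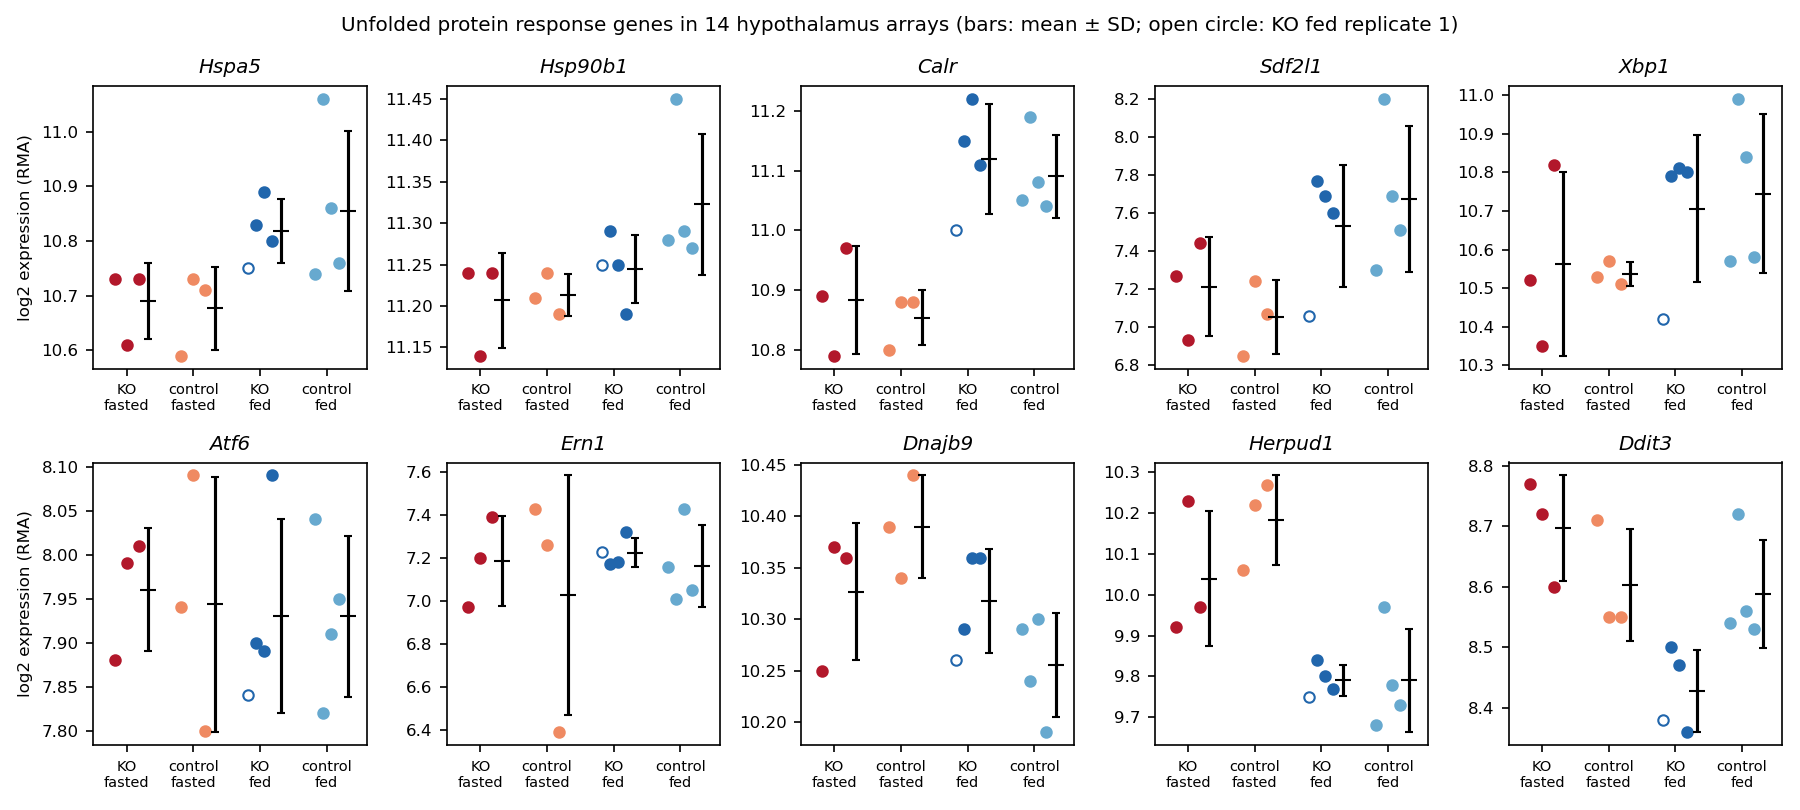
Log2 expression of the 10 members (one panel each) on every array, by group, with points for arrays, bars for mean ± SD, and an open circle for knockout fed replicate 1. On these probe sets Calr and Hspa5 are lower on all 6 fasted arrays than on all 8 fed arrays, and Herpud1 is higher in fasted mice within each genotype.

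**Figure D2:**
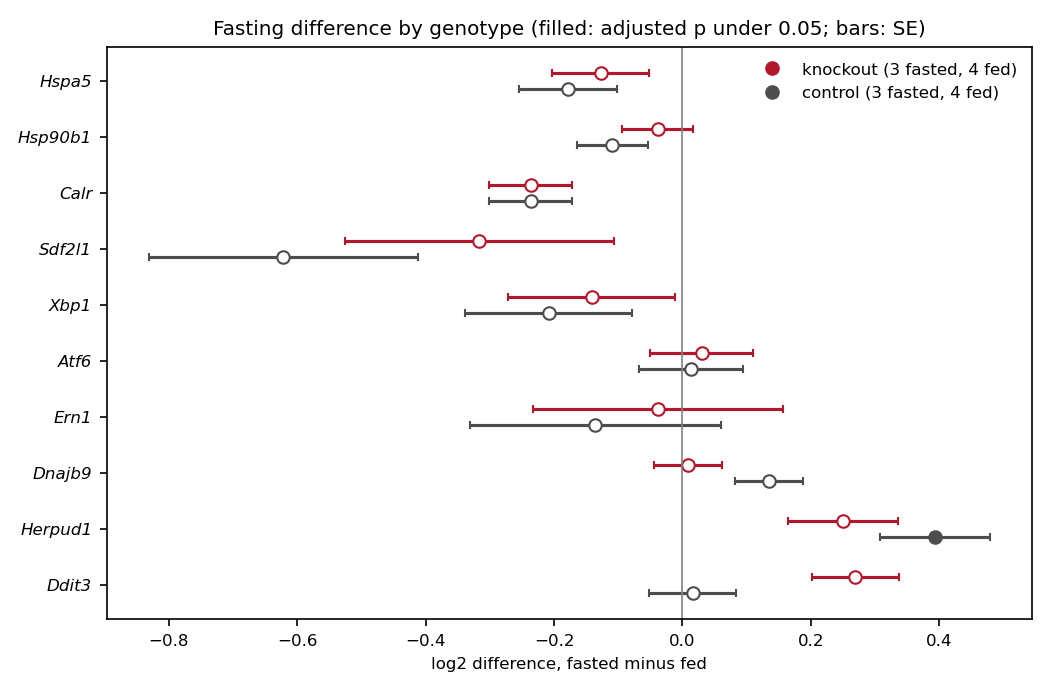
Fasted minus fed log2 differences of the 10 members in knockout mice and in control mice, with bars for the SE of the limma fit and filled circles for an adjusted p under 0.05. Calr lies at -0.24 in both genotypes, and Herpud1 in control mice, at 0.39, is the 1 filled circle.

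Replicate 1 of the knockout fed group, the 1 fed array in the low number series, lay at 11.00 for Calr, between the fasted arrays, up to 10.97, and the other fed arrays, from 11.04. For Herpud1 it lay at 9.75, below all fasted arrays. For Sdf2l1 its 7.06 and for Xbp1 its 10.42 were below the other 7 fed arrays and within the fasted range. On the second probe sets of Calr and Hspa5 its 10.21 and 10.33 also lay within the fasted range. On the second probe set of Hsp90b1 its 11.01 lay above all fasted arrays. With the number series as a covariate, which rests on this array, the averaged difference was -0.10 for Calr (adjusted p = 0.768) and 0.37 for Herpud1 (adjusted p = 0.334), and 0 members passed by limma.

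The second comparison asks whether loss of Mfn1 in POMC neurons moves these genes. No member passed in fed, in fasted or in averaged mice by limma: 0 of 10 in each, against 0.00585%, 0% and 0.00585% of all genes. At an unadjusted p under 0.05 there was 1 member in fed mice, against 4.62% of all genes (790 genes). There were 0 in fasted mice, against 3.86% (660 genes), and 0 in the average, against 4.65% (795 genes). The share of POMC neurons in the samples was not measured. In the average all 7 measured choroid plexus markers were above 0, with a median genotype difference of 1.5, and 0 were called by limma.

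Ddit3 was the member with the smallest p in fed mice. Its 8.38, 8.50, 8.47 and 8.36 in knockout fed mice lay below the 8.54, 8.72, 8.56 and 8.53 of control fed mice, with no overlap. Such separation held for 1 of 10 members lower in fed knockout mice, against 1.48% of all genes, and 0 higher, against 0.977%. In fasted mice 0 members were separated in either direction, against 4.19% higher and 3.45% lower, and over both feeding states 0 were, against 0.0175% higher and 0.0409% lower. The difference was -0.16 ± 0.06, with an unadjusted p of 0.024 and an adjusted p of 0.995.

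For the lumen chaperones the averaged genotype differences had narrow intervals. The 95% interval was -0.13 to 0.10 for Hspa5, -0.13 to 0.04 for Hsp90b1 and -0.07 to 0.13 for Calr. Sdf2l1 was measured less tightly, with -0.31 to 0.33, and Herpud1 lay between them at -0.20 to 0.06. These intervals bound the change in whole hypothalamus and do not show that the genotypes act alike.

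**Figure D3:**
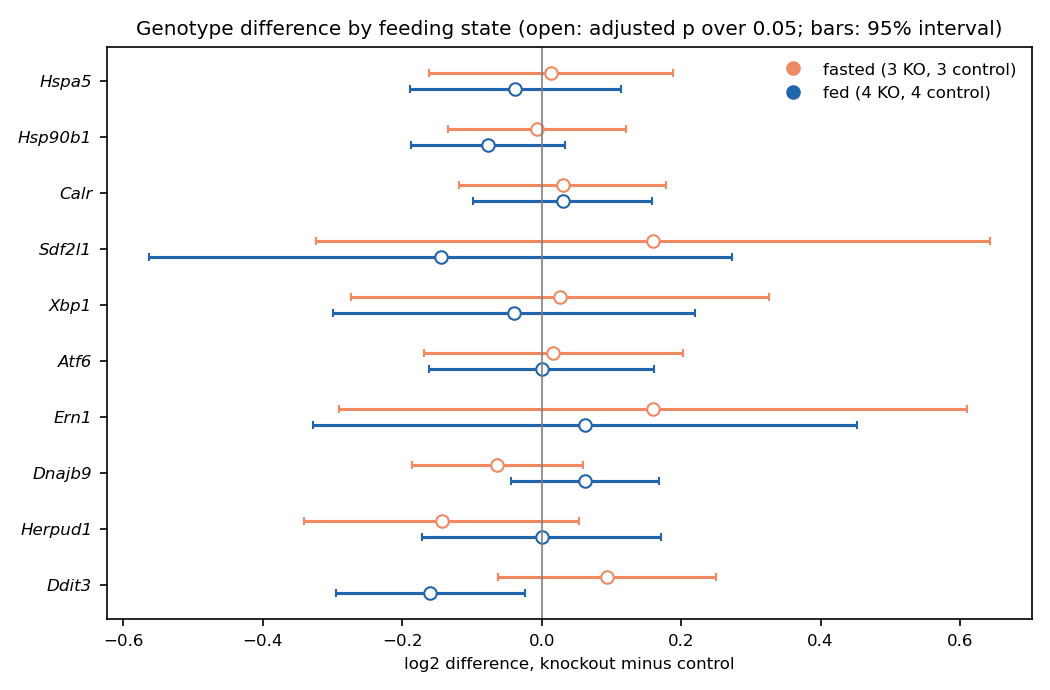
Knockout minus control log2 differences of the 10 members in fasted mice and in fed mice, with 95% intervals of the limma fit as bars and open circles for an adjusted p over 0.05. Ddit3 in fed mice, at -0.16, has an interval below 0, and no member passed after adjustment.

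The interaction asks whether fasting acts differently in the genotypes: it is the fasting difference in knockout less that in control mice. It passed for 0 of 10 members by limma, against 0% of all genes, with 1 member at an unadjusted p under 0.05, against 3.82% of all genes (653 genes). That member was Ddit3, at 0.25 ± 0.10 (unadjusted p = 0.0201, adjusted p = 1). For Calr it was 0 ± 0.09 and for Herpud1 -0.14 ± 0.12. The wide interval of Sdf2l1, -0.33 to 0.94, spans 0.

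Across the 14 arrays 5 members, Hspa5, Hsp90b1, Calr, Xbp1 and Sdf2l1, varied together, a grouping made after the values were seen. Pearson's r of their 10 pairs lay between 0.647 and 0.941, and between 0.586 and 0.902 once group means were taken out. Pairs of one of these and one of the other members lay between -0.685 and 0.217, and between -0.408 and 0.544 without group means. Pairs of 2 other members lay between -0.352 and 0.609, and between -0.464 and 0.584 without group means. The highest of these came close to the lowest pair of the 5. The arrays share tissue and normalisation, and these values are descriptive.

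Control fed replicate 2 was highest for Hspa5, Hsp90b1, Xbp1 and Sdf2l1, and knockout fasted replicate 2 was lowest for Hsp90b1, Calr and Xbp1. The 5 genes most like Hspa5 over the 14 arrays, among genes above the median level, were Sdf2l1 (r = 0.941), Ahsa2 (0.929), Erp44 (0.918), Hsph1 (0.916) and Gtf3c5 (0.891). Erp44 encodes a thiol chaperone that retains proteins in the early secretory pathway, and Hsph1 encodes a cytosolic chaperone of the Hsp110 family. Hspa5 itself was lower on fasted arrays, so this choice favours genes lower in fasted mice, and their differences are given only as a description. Averaged over genotypes they were -0.27 for Hsph1, -0.26 for Ahsa2, -0.25 for Erp44 and -0.14 for Gtf3c5.

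**Figure D4:**
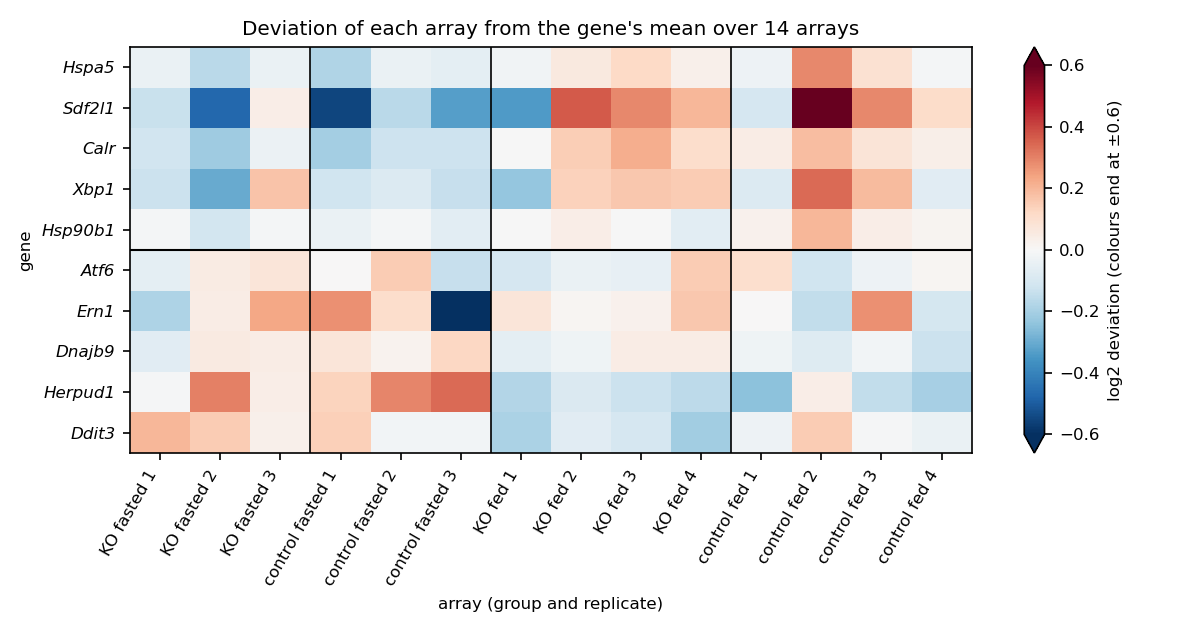
Deviation of each member's log2 value from its mean over the 14 arrays, with members in rows, the 5 that varied together above the line, and arrays in columns by group, in colours that end at ±0.6. Hspa5, Hsp90b1, Xbp1 and Sdf2l1 are highest on control fed replicate 2.

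Other genes of the pathway were taken from 5 lists, here compared as fasted minus fed averaged over genotypes, where 5.14% of all genes were called higher and 4.9% lower. The calls in the lists, 1 to 3 genes each, are to be read against those shares. Of the ER chaperones and folding enzymes, 22 of 24 were measured, 0 were called higher and 1 lower, with a median of -0.03. The gene called was Pdia6, a disulfide isomerase, at 9.43, 9.35 and 9.37 in knockout fasted and 9.14, 9.23 and 9.33 in control fasted mice, against 9.49, 9.85, 9.87 and 9.77 in knockout fed and 9.49, 9.92, 9.90 and 9.55 in control fed mice. Its fasted and fed arrays did not overlap, with a difference of -0.42 ± 0.08 (adjusted p = 0.00681). Creld2 at -0.43 ± 0.15, Pdia4 at -0.26 and Pdia3 at 0.16 did not pass, with adjusted p-values of 0.0801, 0.0832 and 0.142. The average of Pdia3 covers opposite signs, 0.425 in knockout mice and -0.0958 in control mice. Neither passed by limma (adjusted p = 0.0643 and 0.656).

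Of ER-associated degradation, 16 of 18 were measured, 3 were called higher and 0 lower, with a median of 0.08. Derl1, a membrane channel component, rose by 0.28 ± 0.06 (adjusted p = 0.00988). Selenos, a selenoprotein that recruits the degradation machinery, rose by 0.18 ± 0.05 (adjusted p = 0.0278), and Ube2j1, a ubiquitin-conjugating enzyme, by 0.12 ± 0.03 (adjusted p = 0.0436). The 6 fasted Derl1 values, 9.0 to 9.29, lay above the 8 fed ones, 8.67 to 8.91.

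Of the other sensors, proteases and ER membrane factors, 11 of 11 were measured, 2 were called higher and 0 lower, with a median of -0.05. They were Mbtps1, a protease that cuts ATF6, at 0.16 ± 0.04 (adjusted p = 0.0209), and Creb3 at 0.14 ± 0.04 (adjusted p = 0.0246). Eif2ak3, the gene of PERK, did not pass at 0.16 (adjusted p = 0.0532). Of the PERK, ATF4 and CHOP arm, 12 of 13 were measured, 1 was called higher and 0 lower, with a median of 0.11. It was Cebpb, a transcription factor, at 0.48 ± 0.11 (adjusted p = 0.0164). Ppp1r15a at 0.50 (adjusted p = 0.0632) and Atf4 at 0.09 (adjusted p = 0.131) did not pass.

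Of the translocon genes, 15 of 17 were measured, 1 was called higher and 0 lower, with a median of 0.01. It was Ssr3, at 0.11 ± 0.03 (adjusted p = 0.0447). In the genotype and interaction contrasts 0 genes of any of the 5 lists passed by limma.

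**Figure D5:**
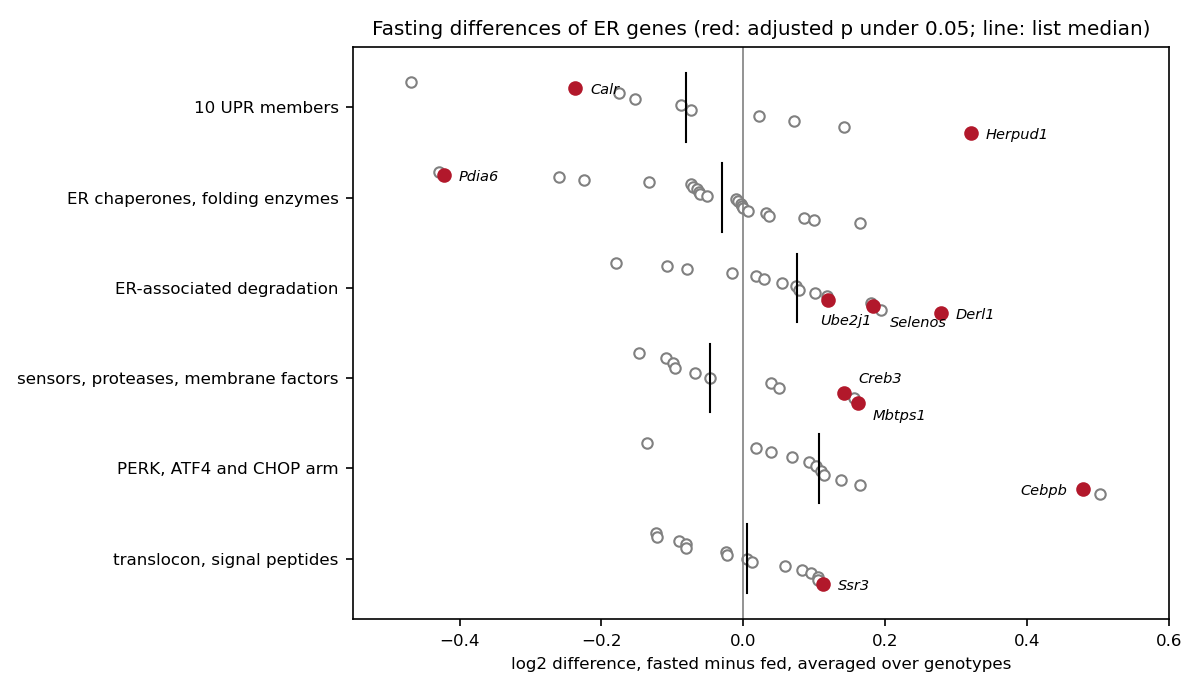
Fasted minus fed log2 differences, averaged over genotypes, of the measured genes of each ER list, 1 point per gene, with genes past an adjusted p of 0.05 named. Pdia6 and Calr are lower and Derl1, Cebpb and Herpud1 are among those higher.

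Markers of some other cell types also moved with fasting. Averaged over genotypes, 5 of 8 microglia markers and 2 of 6 endothelium markers were called lower, and of the astrocyte markers 4 of 8 were called higher and 1 lower. Of the oligodendrocyte markers 2 of 7 were called lower, Opalin at -1.19 ± 0.16 and Ugt8a at -1.02 ± 0.11, and 1 higher. The median of these 7 was only -0.04, and 3 were above 0. Of the cortex and hippocampus markers 1 of 7 was called lower, and of the hypothalamic tissue markers 1 of 9 was called higher. For neurons 0 of 6 markers were called, for choroid plexus 0 of 7, for ependyma 0 of 4 and for pituitary 0 of 5. Of all genes 5.14% were called higher and 4.9% lower. Mean astrocyte marker levels, centred on the mean of all arrays, ran from -0.002 to 0.153 in knockout fasted and 0.098 to 0.277 in control fasted mice, against -0.152 to -0.057 in knockout fed and -0.142 to -0.062 in control fed mice. Mean choroid plexus levels ran from 0.747 to 0.853 in knockout fasted and -1.309 to -0.106 in control fasted mice, against -1.269 to 1.497 in knockout fed and -1.406 to 0.684 in control fed mice. Their part in the differences of Calr and Herpud1 was not tested.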

How the data were processed

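Per the submitters' processing notes, the authors made the deposited log2 values with RMA and affy, which correct background, normalise arrays and summarise probes, and no versions are given. The annotation's genome build: not given in the sources used here. Array medians lay between 4.98 and 5.05, and precision is limited by the number of arrays. Of 45141 probe sets, 28898 named 1 gene, and each of 17097 genes took the one with the highest mean. The fit used limma 3.58.1 (R 4.3.3; lmFit with 1 coefficient per group over 14 arrays, contrasts, eBayes; residual degrees of freedom 10, prior 3.27). Tests were two-sided, adjusted by Benjamini-Hochberg over all genes, with a threshold of 0.05, for 7 contrasts. The script was tested on simulated data. Intervals are 95%. Of each other list, up to 4 genes with the smallest unadjusted p in the averaged fasting contrast could be named, besides all members and the 5 genes most like Hspa5. Members and lists were chosen with earlier results of these data known. Alternatives were another filter, the mean of probe sets, the compared groups alone, a trended robust fit, the number series and leaving out arrays. Each probe set as its own test, values of the low-number arrays and genes with ERSE promoters were added after seeing the data.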

Additional observations from a re-analysis of the deposited data

Results flagged for a closer look

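In groups of 4 arrays, 1 array stood apart from the other 3 in 3 cases of the 20 examined, by Dixon's ratio of gap to range. Chance gives about 1 in 20 for independent cases. The cases here share the same arrays and are not independent, so these counts do not show an excess. Hsp90b1 was 11.45 in control fed replicate 2, against 11.27 to 11.29 in the other control fed arrays. Replicate 1 of the knockout fed group had 10.42 for Xbp1, and its other 3 arrays lay between 10.79 and 10.81. Ddit3 was 8.72 in control fed replicate 2, against 8.53 to 8.56 in the other control fed arrays.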

How the results depend on the processing

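No paired analysis was possible because the numbers in the titles are all different. The averaged calls of Calr and Herpud1 held in each of 14 fits that left out 1 array, but the second probe set of Calr did not pass (-0.18, adjusted p = 0.0622). The number of members called in averaged fasting was 4 with the 40% of lowest genes left out and 0 with the number series as covariate. In control mice it was 2 with the filter, 2 with a trended robust fit, and 0 with only the compared groups, with the covariate or without control fed replicate 1 and knockout fed replicate 4. In knockout mice it was 2 with the trended fit. Genes called in control fasting were 770 with the trended fit and 2 with the covariate. In knockout fasting they were 231 with the filter, 10 with the compared groups, 341 with the trended fit and 0 with the covariate, and in averaged fasting 15 with the covariate. In fed genotype they were 2 with the filter, the trended fit or the covariate and 0 with the mean of probe sets, the compared groups or without those arrays. In fasted genotype they were 4 with the compared groups and 3 with the covariate. In averaged genotype they were 0 with the mean of probe sets, 4 with the trended fit and 6 with the covariate, and in the interaction 1 with the covariate. The cause was not tested. Leaving out 1 array gave 998 to 2120 genes in averaged, 216 to 685 in control and 18 to 363 in knockout fasting, 0 to 3 in fed, 0 to 3 in fasted and 1 to 6 in averaged genotype, and 0 to 1 in the interaction. Members ranged over 2 to 4 in averaged, 0 to 1 in control and 0 to 1 in knockout fasting. Sdf2l1 passed in averaged fasting in 3 of these fits, without knockout fasted replicate 3, knockout fed replicate 1 or control fed replicate 1. Ddit3 passed in averaged fasting in 2, without knockout fasted replicate 3 (adjusted p = 0.0455) or control fed replicate 2 (0.0462), and in knockout fasting in 1, without knockout fasted replicate 3 (0.0491).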

Other observations

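In all, 20 tested genes had an exact match to ERSE in their promoter window, 3 of them the members Hspa5, Hsp90b1 and Calr. In averaged fasting 2 were called higher, against 5.14% of all genes, and 3 lower, against 4.9%. Their median difference was -0.03. The lower ones were the member Calr, Pdia6 at -0.42 ± 0.08 and Spats2l at -0.18 ± 0.04 (adjusted p = 0.0174), and the higher ones were Hnrnpa3 at 0.13 ± 0.03 (adjusted p = 0.0317) and Acacb, the gene of a mitochondrial acetyl-CoA carboxylase, at 0.45 ± 0.08 (adjusted p = 0.00606), from limma. This set was chosen after the data were seen.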
